A study of Mus musculus with 4 samples.

Results

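Ctsk, the gene of cathepsin K, was 6.11-fold higher in GM-CSF M1 cells than in M-CSF M2 cells, and Ctss, Ctse and Ctsh were higher by 1.83-, 1.61- and 1.43-fold. Ctsb, Ctsc, Ctsd, Ctsl, Ctsz and Cst3 did not pass the test. These 10 genes are cystatin C and a chosen set of cathepsins, taken by name from the array annotation, out of 19938 genes with a named probe set. They were chosen with earlier results of these data known, and 12 further cathepsin genes that were measured are given below. Each of the 10 had 1 probe set that carried its symbol alone, and all 10 passed the filter on dim genes, which left 14995 genes in the test.

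Cathepsins are proteases of endosomes and lysosomes, and macrophages hold them in large amounts. They degrade proteins taken up by the cell, trim the invariant chain and antigens for MHC class II presentation, and are partly secreted, where they cleave matrix. Most are cysteine proteases made as inactive precursors and activated at acidic pH, a smaller number are aspartic proteases, and cystatin C, the product of Cst3, is a secreted inhibitor of the cysteine type.

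The cells came from bone marrow of C57BL/6J mice and were cultured for 7 days. GM-CSF M1 cells grew in GM-CSF, the growth factor that drives granulocytes and macrophages, and were sorted as CD45+, MHCII+ and CD8a- cells that carried the Adgre1 protein, a macrophage surface marker. M-CSF M2 cells grew in M-CSF, a macrophage growth factor that came from 20% L929 fibroblast supernatant, and were sorted as CD45+ and CD11b+ cells that carried the Adgre1 protein. Each group had 2 Affymetrix arrays made from 300 ng of total RNA, and values are log2 expression after RMA. Both groups share strain, tissue, medium and culture time, and no age or genotype beyond the strain is given. Growth factor, supernatant and sort gate differed together and cannot be told apart. The labels do not say that replicates were separate cultures or animals, so the p-values measure the spread between these samples, which may be technical.

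Adgre1, whose product both gates used, read 12.32 and 12.61 on the M1 arrays and 12.73 and 12.79 on the M2 arrays, and Itgam (CD11b) 11.81 and 11.77 in M1 and 11.87 and 11.84 in M2. Cd8a, gated out of M1, read 5.50 to 5.90 over the 4 arrays. The M1 arrays lay farther apart than the M2 arrays, with an SD over the genes tested of 0.325 for the log2 difference within the M1 pair and 0.1798 within the M2 pair. Of the 14995 genes, 926 were higher in M1 (6.18%) and 679 lower (4.53%), with a limma adjusted p under 0.05. Without M2 replicate 1 or 2 the counts were 196 and 65, or 168 and 65, and without M1 replicate 1 or 2 they were 1468 and 1178, or 1683 and 1522. Olfactory receptor genes, which macrophages are not known to use, gave a background range with a mean 95th percentile of 5.90 on the log2 scale.

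**Figure D1:**
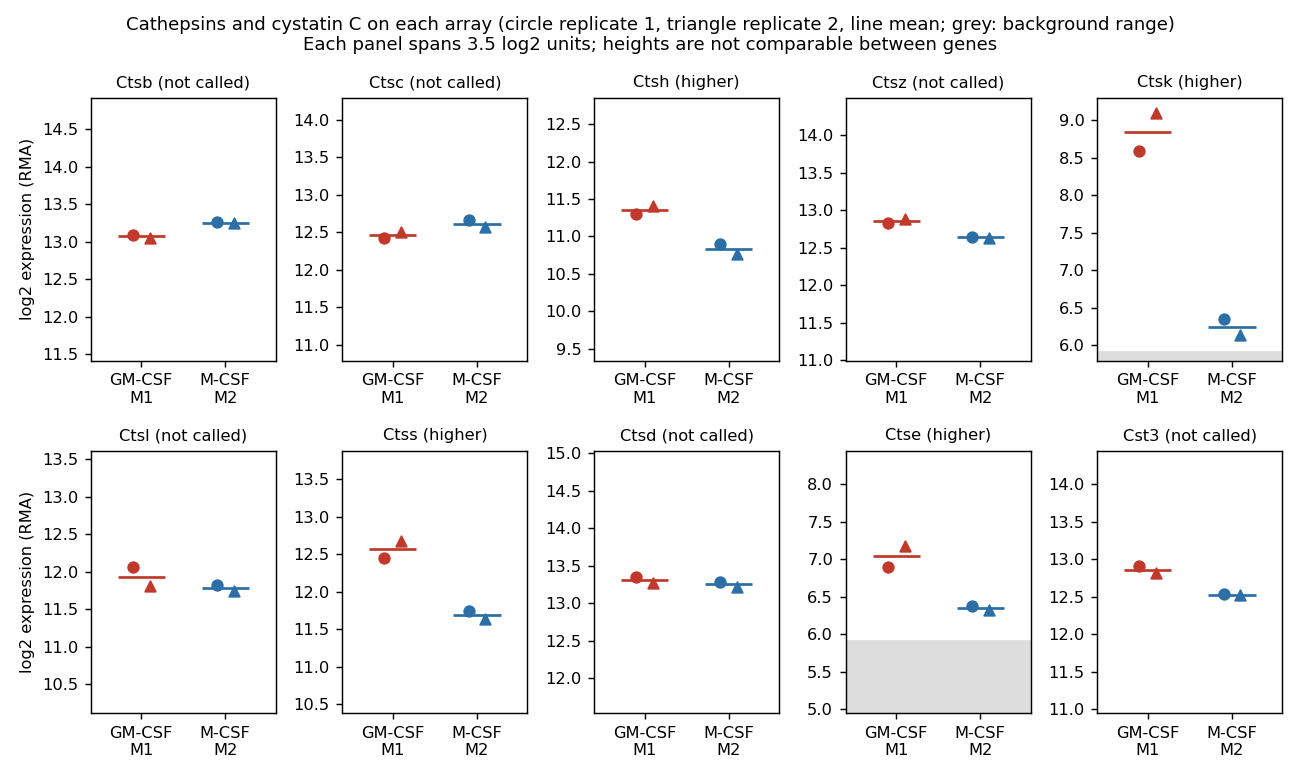
log2 expression (RMA) of the 10 genes on each array, GM-CSF M1 left and M-CSF M2 right, with circles for replicate 1, triangles for replicate 2 and lines for group means. Ctsk, Ctss, Ctse, Ctsh, Ctsz and Cst3 lie higher on both M1 arrays than on both M2 arrays, Ctsb and Ctsc lie lower, and Ctsd and Ctsl overlap. Ctsk and Ctse of M2 arrays lie just above the grey background range, and heights are not comparable between genes.

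Of the 10 genes, 4 were higher in M1 and 0 lower (limma, Benjamini-Hochberg over all 14995 genes), against 6.18% and 4.53% of all genes tested. At an unadjusted p under 0.05 (limma) the counts were 5 and 0. The share of all genes at that unadjusted threshold was not computed, here or for the lists below. The median gene tested read 7.15 to 7.23 on the 4 arrays, dimmer than every member but Ctse, and Ctsk in M2. With the filter at the 50th percentile, 993 of 10875 genes were higher and 739 lower, and 4 members were higher and 0 lower. No share was computed for genes as bright as the members. Without either M2 array 1 of the 10 genes, Ctsk, was called higher. The median log2 difference, M1 minus M2, was 0.27 for the 10 genes and -0.01 for all genes tested. Differences were positive for 8 genes and negative for 2, and they ran from 2.61 for Ctsk to -0.18 for Ctsb. Ctsk was the single member called higher in M1 by at least 2-fold, as were 2.97% of all genes tested. Both M1 arrays lay above both M2 arrays for 6 genes, against 26.3% of all genes, and below them for 2, against 29.2%. The arrays of a group lay 0.04 to 0.51 apart within M1 and 0.00 to 0.22 apart within M2 for these genes.

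**Figure D2:**
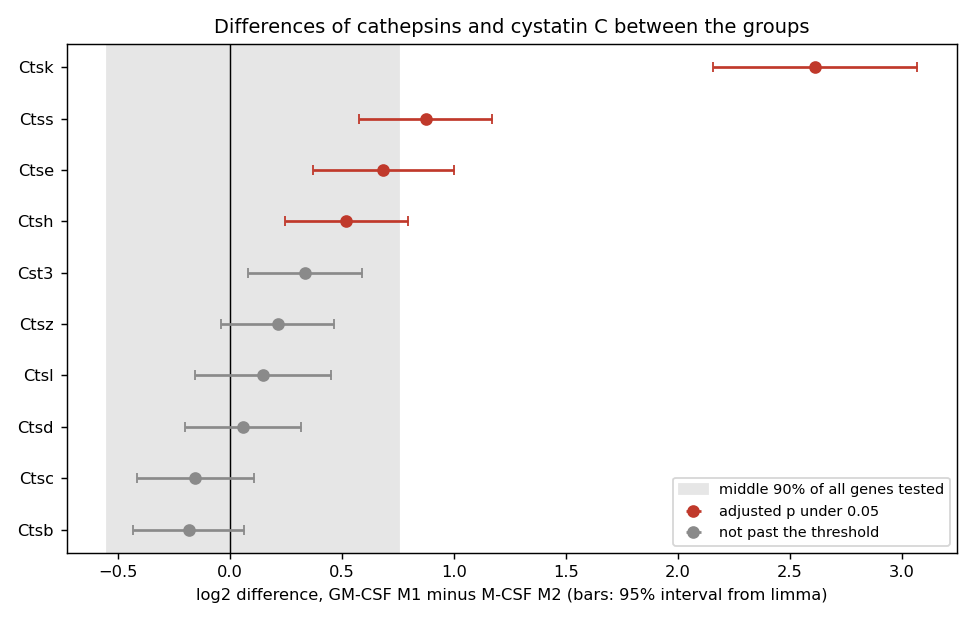
Log2 difference, GM-CSF M1 minus M-CSF M2, of each gene with its 95% interval from limma (2 arrays per group), against the middle 90% of all genes tested in grey. Ctsk at 2.61 and Ctss at 0.87 lie beyond the grey band, which ends at 0.76, and the intervals of Ctsb, Ctsc, Ctsd, Ctsl and Ctsz include 0.

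Among the endopeptidases of the cysteine type, Ctsk stood far from the others. Cathepsin K cleaves triple-helical collagen and elastin and is best known as the main matrix protease of osteoclasts. Ctsk read 8.60 and 9.10 on M1 replicates 1 and 2, and 6.35 and 6.13 on M2 replicates 1 and 2. The groups did not overlap, and the gap between them was several times that within either pair. The log2 difference was 2.61 ± 0.19 (SE, n = 2 per group), with a 95% interval of 2.16 to 3.07 and a limma adjusted p of 0.00076. It ranked 95 among the 14995 genes by signed difference. The M2 values lay just above the background range, so the size of the fold depends on the background. Without M1 replicate 1 or 2 the difference was 2.86 or 2.36, and without M2 replicate 1 or 2 it was 2.72 or 2.50. It passed in all 4 of these fits, with a highest adjusted p of 0.0397.

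Cathepsin S works at neutral as well as acidic pH and makes the last cut of the invariant chain in antigen-presenting cells. Ctss read 12.45 and 12.67 on the M1 arrays, and 11.74 and 11.64 on the M2 arrays. All M1 values exceeded all M2 values, by more than the arrays of a group differed. The log2 difference was 0.87 ± 0.12 (SE, n = 2 per group; 95% interval 0.58 to 1.17), with a limma adjusted p of 0.00852. The call was lost without M2 replicate 1 or 2 (adjusted p = 0.112 or 0.141 with limma), at differences of 0.92 and 0.82.

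Cathepsin L is an endopeptidase that matures other lysosomal proteases and, in thymic epithelium, cleaves the invariant chain. Ctsl read 12.06 and 11.81 on the M1 arrays, and 11.82 and 11.75 on the M2 arrays. The groups overlapped, since M1 replicate 2 lay below M2 replicate 1. Its log2 difference of 0.15 did not pass, and the 95% interval of -0.16 to 0.45 corresponds to an M1 over M2 ratio between 0.898 and 1.37. Without M1 replicate 1 the difference was 0.03, and without replicate 2 it was 0.27.

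Ctsk and Ctss are neighbours on chromosome 3 in the RefSeq table of mouse genes, with 0 other protein-coding genes between them. Their promoters are shown because they are the 2 members with the largest differences, and that of Ctsd as a member whose groups overlapped. Each sequence runs 5′ to 3′ from 250 bases before the RefSeq gene start to 20 bases from it on (GRCm38.p6), and capitals mark matches to any of 5 motifs on either strand.
Ctsk (chr3:95498960-95499229, + strand): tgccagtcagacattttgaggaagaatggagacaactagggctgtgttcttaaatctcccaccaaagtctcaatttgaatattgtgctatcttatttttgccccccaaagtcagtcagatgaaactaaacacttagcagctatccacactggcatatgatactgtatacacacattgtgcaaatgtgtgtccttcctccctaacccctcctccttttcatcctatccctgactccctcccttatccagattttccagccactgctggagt
Ctss (chr3:95526536-95526805, + strand): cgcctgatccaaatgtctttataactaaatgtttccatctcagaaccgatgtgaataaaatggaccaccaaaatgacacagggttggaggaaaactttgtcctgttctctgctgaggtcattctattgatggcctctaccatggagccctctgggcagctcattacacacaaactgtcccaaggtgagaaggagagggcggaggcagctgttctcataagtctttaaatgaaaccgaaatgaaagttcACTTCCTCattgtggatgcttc
Ctsd (chr7:142387808-142388077, - strand): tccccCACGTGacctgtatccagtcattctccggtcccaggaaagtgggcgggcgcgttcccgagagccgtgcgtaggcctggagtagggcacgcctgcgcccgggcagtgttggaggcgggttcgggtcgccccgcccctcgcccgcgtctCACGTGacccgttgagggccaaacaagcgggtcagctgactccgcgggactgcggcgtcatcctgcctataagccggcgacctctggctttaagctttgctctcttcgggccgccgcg
The motifs were CACGTG, the E-box core of the element bound by TFEB and its relatives, CATGTG, an E-box variant bound by MITF, TGANTCA for AP-1, TTCNNNGAA for STAT factors and GAGGAAGT for PU.1. The capitals in Ctss are GAGGAAGT read on the opposite strand, beginning 2 bases before the gene start. The capitals in Ctsd are CACGTG, beginning 245 and 98 bases before it. The Ctsk window holds no match, and it has 0 CpG dinucleotides, against 4 in Ctss and 31 in Ctsd and a median of 6 over 32851 promoters. Ctsd had the most CpG of the 7 members with a listed promoter, with 8 in Ctsl, 9 in Ctsz and in Cst3, and 10 in Ctsc. Of those promoters 6.57% hold CACGTG, 13.1% CATGTG, 7.23% TGANTCA, 7.58% TTCNNNGAA and 2.72% GAGGAAGT. Among the 7 members with a listed promoter, Ctsl also held CACGTG, and Ctsc held GAGGAAGT and TTCNNNGAA. A match is a description of these letters, not a site. The promoters of Ctsb, Ctse and Ctsh were not searched.

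Of the exopeptidases of the cysteine type, Ctsh was higher and Ctsz, Ctsb and Ctsc did not pass the test. Cathepsin H is an aminopeptidase, cathepsin Z a carboxypeptidase, cathepsin C a dipeptidyl peptidase that activates granule serine proteases, and cathepsin B both a dipeptidyl carboxypeptidase and an endopeptidase. Ctsh read 11.31 and 11.40 on the M1 arrays, and 10.90 and 10.77 on the M2 arrays. The groups lay apart by more than the arrays of either pair. Its log2 difference was 0.52 ± 0.11 (SE, n = 2 per group; 95% interval 0.25 to 0.79), with a limma adjusted p of 0.0372. The call ended with no filter on dim genes (adjusted p = 0.0532, limma), with a replicate block (0.0533) and without M2 replicate 1 or 2 (0.198 or 0.279).

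Ctsz read 12.83 and 12.88 on the M1 arrays, and 12.65 and 12.63 on the M2 arrays. The groups did not overlap, but the difference of 0.21 (95% interval -0.04 to 0.46) did not pass the test. Ctsb read 13.09 and 13.05 in M1, and 13.26 and 13.25 in M2. Ctsc read 12.43 and 12.50 in M1, and 12.66 and 12.57 in M2. For both of these genes every M1 array lay below every M2 array. The log2 differences were -0.18 for Ctsb and -0.15 for Ctsc, with 95% intervals of -0.43 to 0.06 and -0.41 to 0.11, and neither passed (limma adjusted p = 0.334 and 0.448). The lower ends of these intervals correspond to M1 over M2 ratios of 0.741 and 0.751.

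The aspartic cathepsins parted from each other. Cathepsin D is the general aspartic protease of lysosomes, and cathepsin E is its endosomal relative, found in immune and gastric cells. Ctse read 6.90 and 7.17 on the M1 arrays, and 6.37 and 6.33 on the M2 arrays. The groups did not overlap, and M1 replicate 2 was the highest array. The log2 difference was 0.69 ± 0.13 (SE, n = 2 per group; 95% interval 0.37 to 1.00), with a limma adjusted p of 0.0241. The M2 values lay near the background range, and the call was lost without M2 replicate 1 or 2 (adjusted p = 0.207 or 0.224, limma).

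Ctsd read 13.35 and 13.27 on the M1 arrays, and 13.28 and 13.22 on the M2 arrays. The groups overlapped, and the log2 difference of 0.06 (95% interval -0.20 to 0.32) did not pass (limma adjusted p = 0.801). Values of Ctsd lay within 1 log2 unit of the highest value on each array, 13.87 to 13.95, near the top of the scale.

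Cst3 encodes the inhibitor. It read 12.91 and 12.81 on the M1 arrays, and 12.53 and 12.52 on the M2 arrays. The groups did not overlap, with every M1 array higher. The log2 difference of 0.34 ± 0.11 (SE, n = 2 per group; 95% interval 0.08 to 0.59) did not pass (unadjusted p = 0.0179, adjusted p = 0.105 with limma). It passed with trended and robust variances (adjusted p = 0.044, limma).

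Cystatin C inhibits the cysteine cathepsins, so the log2 value of each cathepsin minus that of Cst3 on the same array was set side by side between the groups, with the aspartic Ctse and Ctsd included for completeness. This value was higher on both M1 arrays than on both M2 arrays for Ctsk, Ctss, Ctse and Ctsh, by 2.28, 0.54, 0.35 and 0.18 on average. For Ctsb, Ctsc, Ctsd, Ctsl and Ctsz it was lower on both M1 arrays, with mean differences of -0.52, -0.49, -0.28, -0.19 and -0.12. The sign of this value on an array has no meaning, since it sets probes of different genes against each other. The differences between the groups were not tested, and each includes the Cst3 difference of 0.34, which did not pass. Ctsd, Ctsl and Ctsz, at 0.06, 0.15 and 0.21 on their own, turned negative only when Cst3 was subtracted. The share of all genes that lie apart after the same subtraction was not computed.

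Nearest patterns were sought among the genes tested, leaving out symbols of predicted genes (Gm or LOC), Rik clones and pseudogenes. The 3 of these genes whose 4 values, each centred on its mean, lay nearest to those of Ctsk were Sgk1, AW112010 and AI504432. Their root mean square distances were 0.06, 0.08 and 0.11 on the log2 scale over 4 arrays. Sgk1, a serum- and glucocorticoid-induced kinase, read 9.99 and 10.43 in M1, and 7.69 and 7.62 in M2. For Ctsb they were Fam120a, Tspan14 and Ss18, at distances of 0.002, 0.006 and 0.009, in a range where small differences are common.

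**Figure D3:**
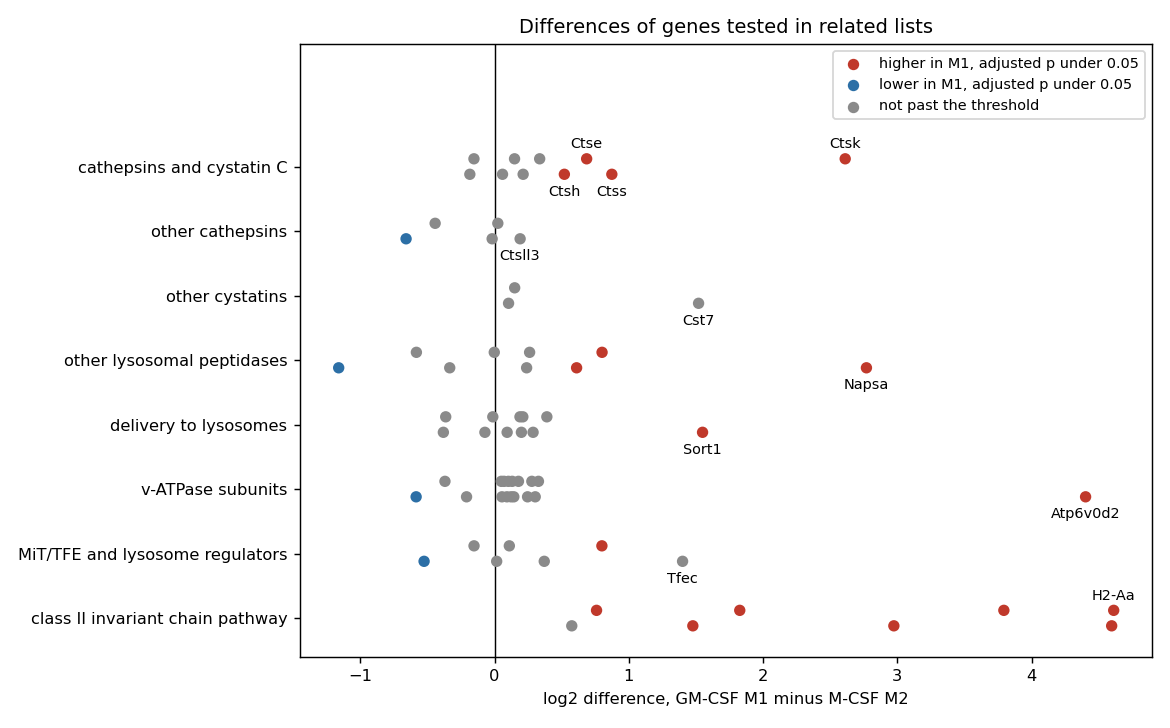
Log2 difference, GM-CSF M1 minus M-CSF M2, of each gene tested in 8 lists, coloured by its call. Single genes lead most lists, such as Napsa at 2.77 and Atp6v0d2 at 4.40, and the class II invariant chain list lies at positive differences throughout.

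Other genes of the family gave 1 call. Over all genes tested, 6.18% were higher and 4.53% lower. Of 12 further cathepsin genes measured, 5 were tested, 0 were higher and 1 was lower in M1 (0 and 2 at an unadjusted p under 0.05, limma), and 9 were no brighter than background in either group. Ctso, a cysteine cathepsin of little studied function, read 8.88 and 9.11 in M1, and 9.74 and 9.57 in M2, a difference of -0.66 ± 0.13 (limma adjusted p = 0.0287), lost without M2 replicate 1 or 2 (0.263 or 0.173). Ctsf differed by -0.44, Ctsa, a serine carboxypeptidase that protects other lysosomal enzymes, by 0.02 and Ctsll3 by 0.19, and these did not pass. Of 14 further cystatin genes, 3 were tested and 0 passed with limma, with 1 higher and 0 lower at an unadjusted p under 0.05. Cst7, the gene of cystatin F, an intracellular inhibitor of cathepsin C, read 8.89 and 7.28 in M1, and 6.69 and 6.44 in M2. Its difference of 1.52 ± 0.48 did not pass (limma adjusted p = 0.106), and it was 0.71 without M1 replicate 1 and 2.33 without replicate 2. Cstb, the gene of the cytosolic inhibitor stefin B, differed by 0.15 and Cst11 by 0.10.

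Among 9 other peptidases and partners, most of them lysosomal, 3 were higher, 1 was lower and 5 did not pass, with a median difference of 0.24. The shares over all genes tested were 6.18% higher and 4.53% lower. Napsa, an aspartic peptidase related to Ctsd, read 10.05 and 9.90 in M1, and 7.34 and 7.08 in M2. At 6.82-fold (log2 2.77 ± 0.13, limma adjusted p = 0.000237) it had a difference close to that of Ctsk, and it passed in each of the 4 fits that left out an array. Prcp, a carboxypeptidase, was higher by 0.80, and Ifi30, the thiol reductase that breaks disulfide bonds of antigens, by 0.61. Cpq, another carboxypeptidase, was lower (log2 -1.16 ± 0.11, adjusted p = 0.00236). Without M2 replicate 1 or 2 the calls of Prcp, Ifi30 and Cpq were lost, with limma adjusted p of 0.193 or 0.246, 0.182 or 0.172, and 0.0667 or 0.0581. Lgmn, the asparaginyl endopeptidase that matures cathepsins B, H and L, read 11.88 and 12.22 in M1, and 12.60 and 12.66 in M2, and missed the threshold at -0.58 (limma adjusted p = 0.0526). Lgmn was chosen after its value was seen.

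Of 11 genes in a list on delivery to lysosomes, 1 was higher and 10 did not pass. Over all genes tested, 6.18% were higher and 4.53% lower, so 1 call is near that share. Sort1, the sorting receptor sortilin, read 10.26 and 9.50 in M1, and 8.48 and 8.18 in M2, a difference of 1.55 ± 0.25 (limma adjusted p = 0.0148) that was lost without M2 replicate 1 or 2 (0.137 or 0.191). Gnptab and Gnptg, subunits of the enzyme that makes the mannose-6-phosphate tag, differed by -0.38 and -0.36, and Scarb2 by 0.39, none of which passed.

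The vacuolar ATPase acidifies the compartments in which cathepsins become active. Of its 17 subunit genes tested, 1 was higher, 1 was lower and 15 did not pass. These counts are near the shares over all genes tested, 6.18% higher and 4.53% lower. Atp6v0d2, a subunit isoform of osteoclasts and some macrophages, read 12.03 and 10.71 in M1, and 6.98 and 6.95 in M2. The difference was 4.40 ± 0.39 (21.1-fold, limma adjusted p = 0.00158), and 3.74 without M1 replicate 1. It missed the threshold without M2 replicate 1 or 2 (0.0573 or 0.061). Atp6v1g1 was lower by -0.58 ± 0.12 (limma adjusted p = 0.0308, at most 0.27 without an M2 array), while Atp6v1h and Tcirg1 differed by -0.37 and 0.33 and did not pass.

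Among 7 genes of the MiT/TFE transcription factors, which switch on lysosomal genes, and their regulators, 1 was higher, 1 was lower and 5 did not pass. The shares over all genes tested were 6.18% and 4.53%. Mitf, which drives Ctsk in osteoclasts, was higher by 0.80 ± 0.13, with 10.00 and 9.92 in M1, and 9.31 and 9.01 in M2 (limma adjusted p = 0.0163). Flcn, a brake on TFE3 and TFEB, was lower by -0.52 ± 0.11 (limma adjusted p = 0.0376). Tfec read 11.28 and 9.74 in M1, and 9.15 and 9.07 in M2, and Tfeb differed by 0.37, and neither passed. Without an M2 array, the highest adjusted p was 0.167 for Mitf and 0.29 for Flcn.

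Of the MHC class II genes, 7 of 8 tested were higher and 0 lower, against 6.18% and 4.53% of all genes tested. At an unadjusted p under 0.05 (limma) the counts were 8 and 0, and the median difference was 2.40. M1 cells were sorted for MHC class II, so the rise of this list is not an independent finding. Cd74, the invariant chain that cathepsin S cuts, read 11.22 and 11.66 in M1, and 7.57 and 7.73 in M2, a difference of 3.79 ± 0.17. H2-Aa, H2-Ab1 and H2-Eb1 differed by 4.61, 4.60 and 2.97. Without M2 replicate 1 or 2, 3 genes of the list were higher, and H2-Eb1 lost its call (limma adjusted p = 0.131 or 0.0996). The difference of Ctss, at 0.87, was smaller than those of these 4 genes, named for the largest differences of the list. Of the others, H2-DMa and H2-Oa lay above Ctss at 1.83 and 1.48, and H2-Ob and Ciita below it at 0.76 and 0.58. The comparison was not tested.

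Markers of other cell types were set beside these differences, with 6.18% of all genes tested higher and 4.53% lower. All 6 measured macrophage markers lay above background in both groups, with 0 calls by limma (1 higher at an unadjusted p under 0.05) and a log2 summed level of 14.77 and 14.89 in M1 and 14.76 and 14.74 in M2. Of 6 osteoclast markers, 5 of which were tested, Dcstamp was higher in M1 (8.58 and 7.66, against 5.23 and 5.88), with its M2 mean within background. None was lower (2 higher and 1 lower at an unadjusted p under 0.05, limma), and Calcr and Oscar lay within background in both groups. Acp5 differed by 0.68, Ocstamp by -0.28 and Nfatc1 by -0.18, and these did not pass. The log2 summed level of the osteoclast list was 11.21 and 11.59 in M1 and 10.79 in both M2 arrays. Acp5, its brightest gene, read 10.54 and 11.25 in M1 and 10.22 and 10.20 in M2. Of 7 dendritic cell markers, Clec9a and Ccr7 were higher and 0 lower, with the M2 mean of Clec9a within background. Flt3, Xcr1 and Dpp4 lay within background in both groups, and the log2 summed level was 9.37 and 9.08 in M1 and 8.37 and 8.50 in M2. Of 9 neutrophil markers 0 were higher (1 at an unadjusted p under 0.05, limma) and Mpo was lower. The Mpo mean was 5.67 in M1, within background, and 6.31 in M2. Ly6g and S100a8 differed by 1.02 and 0.89, and Elane and Ngp by -0.18 and -0.09, and none of these passed. The median difference of the neutrophil list was 0.11, with a log2 summed level of 10.47 and 9.38 in M1 and 9.80 and 9.60 in M2. Cd79b, a B cell marker, was lower by -2.36, while Cd79a and Ms4a1 lay within background. The 4 fibroblast, 1 mast cell or basophil, 2 eosinophil, 1 T or NK cell and 1 erythroid markers that were tested gave 0 calls, of 4, 5, 3, 4 and 2 measured, with 2 fibroblast genes lower at an unadjusted p under 0.05 (limma). Without M2 replicate 1 the calls of Dcstamp, Clec9a, Ccr7 and Mpo were lost (limma adjusted p = 0.112, 0.0603, 0.0945 and 0.16), as were those of Dcstamp, Clec9a and Mpo without M2 replicate 2. The part of other cells in the cathepsin differences was not tested, and in such bulk samples fewer cells of a type and less RNA per cell cannot be told apart.

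**Figure D4:**
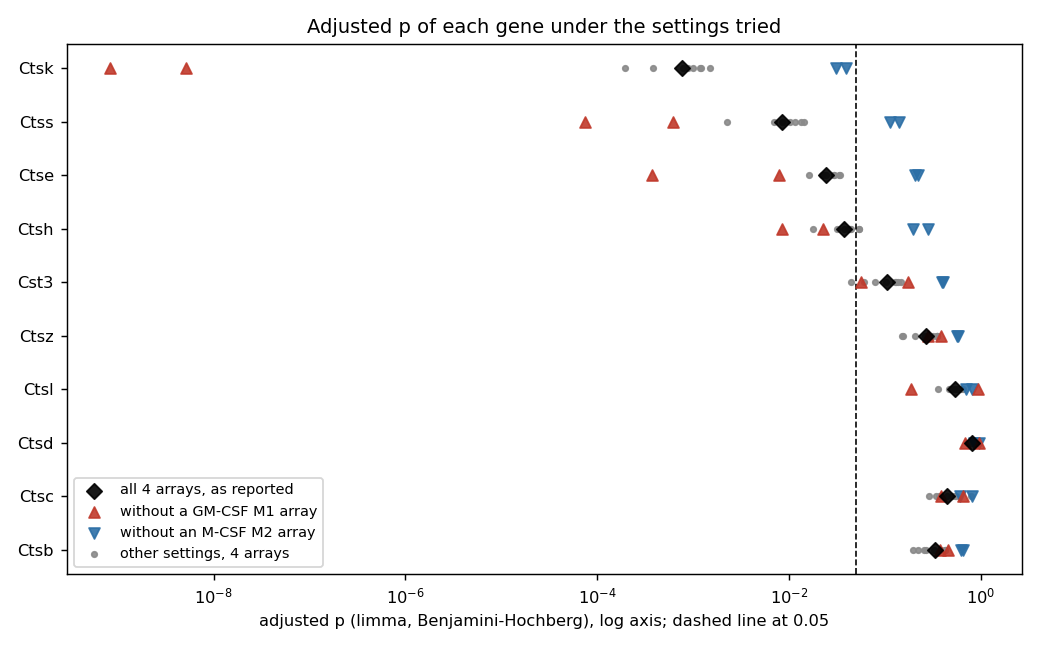
Adjusted p from limma (log axis) of each gene with all 4 arrays as reported (diamonds), without a GM-CSF M1 array, without an M-CSF M2 array and under the other settings with 4 arrays, with the threshold of 0.05 dashed. Ctsk stays left of the line in every fit drawn, with a highest value of 0.0397, while Ctss, Ctse and Ctsh cross it without either M2 array.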

How the data were processed

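The authors deposited 1 log2 value per probe set and array. According to the submitters' processing notes, Affymetrix Expression Console 1.1 computed them by RMA, which subtracts background, equalises the arrays' distributions and summarises probes, so it compresses dim genes and cannot show total RNA per cell. Array number limits precision, and no scan dates were in the values used. Of 35556 probe sets, 21789 carried exactly 1 symbol in the platform annotation, 1621 several and 12146 none listed. The one with the highest mean over 4 arrays stood for a gene. Genes entered when 2 of 4 arrays exceeded the array's 30th percentile. Differences are M1 minus M2, fitted in R 4.3.3 with limma 3.58.1 (linear model and moderated variances, 2 residual degrees of freedom and 4.17 from the prior); two-sided p-values were adjusted by Benjamini-Hochberg over 14995 genes, at 0.05, and the fit was tested on simulated data. Python 3.11.15 and matplotlib 3.10.9 drew plots. The 13 other settings included no filter, a filter at the 50th percentile, quantile normalization again and the mean of a gene's probe sets. Arrays were also centred on their medians or on the medians of the genes tested. The rest were trended and robust variances, a replicate block, leaving out each array in turn, and a threshold of 0.01 on the main fit. Effects that changed a call of the 10 genes are given with the gene or counted below. Members and lists were chosen with earlier results of these data known. The text names the 10 members, up to 4 genes per list with the largest absolute difference, and the 3 nearest patterns of the members with the largest positive and negative differences. Promoters are from RefSeq (GRCm38.p6), and motifs were chosen after the values were seen. Some marker genes were named after their values were seen.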

Additional observations from a re-analysis of the deposited data

How the results depend on the processing

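Over 10 genes and 13 other settings each, 119 of 130 results kept their direction and their side of the threshold, 10 lost the call, 1 gained it and 0 reversed. Changes of filter, of variance model or of threshold, the replicate block and the mean of probe sets left each member's difference as it was. Direction could not reverse in those settings, and the stricter threshold could not add a call. The lost calls were those of Ctss, Ctse and Ctsh. Ctsk passed in 13 of 13 settings, with differences of 2.36 to 2.86. Leaving out an M-CSF array took members called higher to 1 in each case, and leaving out an array in turn gave 1 to 4 called higher and 0 lower. The fits without an array gave 168 to 1683 higher and 65 to 1522 lower genes over all genes tested, fewest without M-CSF M2 replicate 2 and most without GM-CSF M1 replicate 2. A fit without an M1 array takes its spread from the closer M2 pair, so a larger count there adds no evidence, and the lone array left in a group was assumed to vary like the other group. At an adjusted p under 0.01, 2 members (Ctsk and Ctss), 438 genes higher and 223 lower remained. With arrays centred on the medians of the genes tested, a setting chosen after seeing the data, 841 higher and 865 lower were called over all genes, and 4 of the 10 were called higher. The groups share replicate numbers, but the labels tie them to no animal or batch, and the deviations of same-numbered arrays correlated at r = 0.0649 across genes. With a replicate block, 3 members were higher, Ctsh losing its call (adjusted p = 0.0533, limma), and 966 genes were higher and 674 lower. Ctsk and Ctse were dim in M-CSF cells, which limits what the size of their differences can show. Ctsd and Ctsb were the brightest members, and an effect of brightness on their differences was not tested.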
